A study of Mus musculus with 8 samples.

Results

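Large intestine pieces from 8 mice were divided by the level of 1 gene, Hoxb13, which marks the far end of the colon. The rule placed libraries with a normalized value below 50 on a low side and those with 100 or more on a high side. The libraries were thus chosen by their measured Hoxb13 value. Of the 8 libraries 3 fell on the low side, namely core replicate 3 and replicates 2 and 4 of core plus R. intestinalis. The other 5 fell on the high side, namely core replicates 1 and 2, then replicates 1, 3 and 5 of core plus R. intestinalis. Hoxb13 read 25.3, 2.16 and 8.26 on the low side and 141, 439, 247, 394 and 663 on the high side, in the orders just given, which are kept for all values below. The value just inside the low side was 25.3 and the one just outside it 141. Hoxb13 chose the sides, so it is not a result, and every difference between the sides is given as a description with no test.

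All 8 libraries came from ApoE knockout mice, which lack apolipoprotein E and are prone to atherosclerosis. The mice were raised germ-free, colonized by gavage at 8 weeks and dissected at 26 weeks of age, and the tissue label of every library is proximal large intestine. The core community, which makes no butyrate, was carried by 3 mice. The other 5 mice carried core plus Roseburia intestinalis, in which a species that produces butyrate was added. The split crossed the communities, with 1 of 3 core and 2 of 5 core plus R. intestinalis libraries on the low side. The labels do not say how far along the intestine each piece was cut.

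The large intestine is patterned from its start at the caecum to its end at the rectum. Hox genes, transcription factors laid out in clusters, give cells their position along the body axis, and those at the 5′ end of each cluster mark the hindmost parts. In the mouse, bile acid uptake by Slc10a2 is strongest in the last part of the small intestine, while the distal colon is known for absorbing salt and water and for its own mucin sugars and hormones.

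Estimated depth was 6016436 to 6568067 reads on the low side and 4597893 to 15352045 on the high side. Core plus R. intestinalis replicate 3, on the high side, was the deepest. Values are the authors' normalized values, which are not divided by gene length, so levels are compared between libraries and not between genes. Means are given with the SD, for n = 3 low and n = 5 high libraries. Differences are low minus high in mean log2(value + 1). Genes of the large intestine were read throughout. Car1 ran from 12235 to 109366 over the 8 libraries, and Slc26a3, the chloride exchanger of colonic absorption, from 2591 to 18589. Some genes of the upper small intestine were near 0 in all 8 libraries, although 30 of the 36 listed for the small intestinal enterocyte had a mean of at least 10. Lactase (Lct) reached 6.35, apolipoprotein A-IV (Apoa4) 7.08 and the glucose transporter Slc2a2 1.37. Fgf15, which ileal enterocytes release in response to bile acids, reached 2.16.

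The stretches just before the transcription starts of 4 genes with large differences are shown, 2 higher and 2 lower on the low side. Each is the 250 bases upstream, 5′ to 3′, from RefSeq on GRCm38.p6, a later build than the mm9 that the submitters name. Slc10a2 lies at chr8:5105288-5105537, minus strand, and Sis at chr3:72967864-72968113, minus strand. Aqp8 lies at chr7:123462044-123462293, plus strand, and B3gnt7 at chr1:86302971-86303220, plus strand. Capitals mark matches on either strand to any of 3 motifs. The first, TTTATG, is a core bound by CDX and posterior HOX proteins. The next, GTTAAT, is part of the HNF1 motif. The last, GATAAG, is a site bound by GATA factors.
Slc10a2: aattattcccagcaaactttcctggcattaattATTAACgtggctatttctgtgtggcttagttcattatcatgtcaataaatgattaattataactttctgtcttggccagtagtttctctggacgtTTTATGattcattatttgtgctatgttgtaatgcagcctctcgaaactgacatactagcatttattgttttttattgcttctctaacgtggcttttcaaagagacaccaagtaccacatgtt
Sis: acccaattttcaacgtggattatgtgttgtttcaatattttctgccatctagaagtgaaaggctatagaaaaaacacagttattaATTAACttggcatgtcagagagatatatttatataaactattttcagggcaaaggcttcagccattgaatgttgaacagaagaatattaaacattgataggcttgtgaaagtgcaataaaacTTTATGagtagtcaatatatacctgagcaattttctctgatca
Aqp8: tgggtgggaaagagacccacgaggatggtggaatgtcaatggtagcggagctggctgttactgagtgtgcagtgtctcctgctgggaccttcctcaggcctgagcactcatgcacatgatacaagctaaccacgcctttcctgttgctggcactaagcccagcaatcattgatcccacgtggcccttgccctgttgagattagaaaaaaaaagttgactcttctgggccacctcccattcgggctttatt
B3gnt7: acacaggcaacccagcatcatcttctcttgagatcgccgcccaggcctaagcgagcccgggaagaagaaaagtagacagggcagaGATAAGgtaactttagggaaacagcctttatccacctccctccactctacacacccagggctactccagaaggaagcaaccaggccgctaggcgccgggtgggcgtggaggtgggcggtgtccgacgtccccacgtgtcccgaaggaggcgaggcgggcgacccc
The CDX and HOX core and the HNF1 motif each matched once upstream of Slc10a2 and once upstream of Sis, and neither matched upstream of Aqp8 or B3gnt7. The GATA site matched once, upstream of B3gnt7. Among all 27025 RefSeq promoters, which include genes not compared here, 11.1% held the CDX and HOX core, 6.52% the HNF1 motif and 6.6% the GATA site in the same 250 bases. The shown stretches also differ in base composition. G and C made up 34.4% of the bases for Slc10a2 and 31.6% for Sis, against 52.4% for Aqp8 and 61.6% for B3gnt7. The CDX and HOX core and the HNF1 motif are mostly A and T. These 4 chosen genes do not show how the motifs fall over the higher and lower genes. A match describes the letters and shows no binding.

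Slc10a2 and Osta (bile acid transport), Sis (sugar digestion) and Cyp4b1 and Ces1g (drug metabolism) were higher on the low side. Aqp8 and Aqp4 (water transport), B3gnt7 (sugar chain extension) and Slc15a1 (peptide uptake) were lower. Some genes of the same functions went the other way, among them Aqp1 (higher) and Cyp2d12 (lower). Of 13019 genes with a mean of at least 10, Hoxb13 left out, 131 had values on the low side all above those of the high side with means at least 2-fold apart (1.01% of genes). Another 163 had all low-side values below the high side with the same fold (1.25%), or 294 in either direction (2.26%). With no minimum on the fold, the ranges did not overlap in 804 higher (6.18%) and 729 lower genes (5.6%). The median difference over all genes was −0.01. Leaving out core replicate 1 gave 291 lower genes, and leaving out replicate 4 of core plus R. intestinalis gave 419. The ranges themselves lay at least 2-fold apart in only 8 higher and 19 lower genes.

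**Figure D1:**
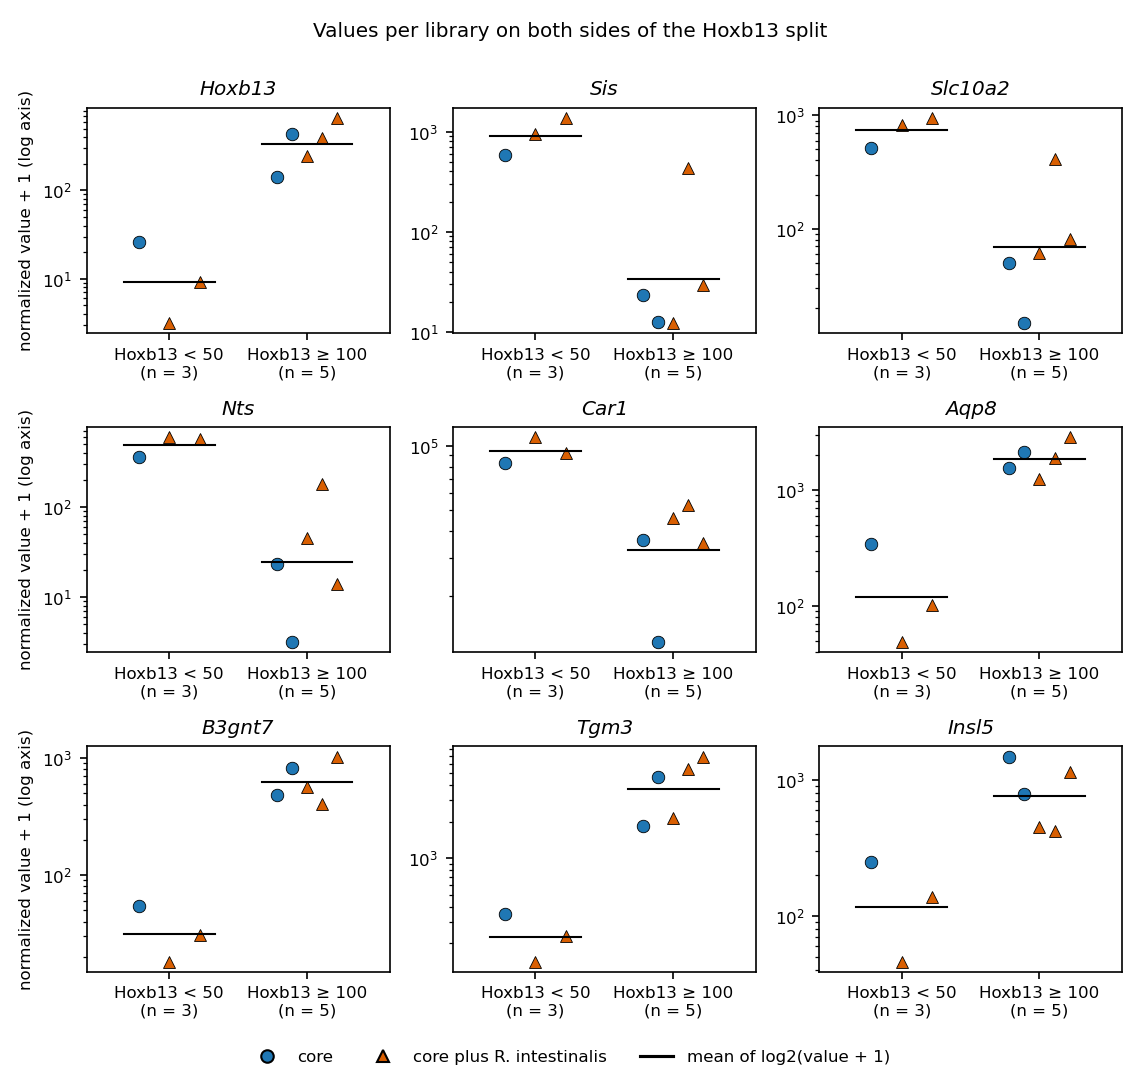
Normalized values plus 1 (log axis) of Hoxb13, which set the sides, and 8 other genes in each library, with core libraries as circles, core plus R. intestinalis libraries as triangles and the mean on the log2 scale as a line. The 3 low libraries sit above the 5 high ones for Sis, Slc10a2, Nts and Car1 and below them for Aqp8, B3gnt7, Tgm3 and Insl5, and core plus R. intestinalis replicate 3 is the high-side library nearest to the low side for Sis (429) and Slc10a2 (414).

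Among the higher genes, the widest difference was that of Sis, sucrase-isomaltase, a brush border enzyme that splits sucrose. Sis read 580.4, 945 and 1370.1 in the low libraries and 22.2, 11.7, 11.3, 429 and 28.1 in the high ones (difference 4.74). The highest of the other high libraries was 28.1, while core plus R. intestinalis replicate 3 came within 1.35-fold of the lowest low library. Slc10a2, the apical transporter that takes up bile acids, read 509.7, 818 and 949 and 49.0, 13.9, 59.7, 414 and 80.5 (difference 3.42). Osta (now named Slc51a), a subunit of the exporter that passes bile acids on to the blood side, read 1382, 2216 and 2053 and 148, 39.4, 213, 798 and 94.6 (difference 3.55). For both, core plus R. intestinalis replicate 3 was again the highest of the high side, and the ranges did not overlap. Slc10a2 was already known to follow this split when the split was drawn, and so was B4galnt2.

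The rest of the bile acid list differed less. Of its 24 genes, 14 had a mean of at least 10, 4 of which were higher and 2 lower with ranges apart. That is 42.9% of those compared, against 11.8% of all genes, and the median difference was 0.22. The 4 higher members include Slc10a2, which was known beforehand to follow the split. The other exporter subunit, Ostb (Slc51b), averaged 1173 ± 92.4 against 623 ± 149. Nr1h4, the bile acid receptor FXR, averaged 1250.1 ± 232 against 619.5 ± 171. Both were thus higher in every low library than in any high one, by 1.26-fold and 1.22-fold at the nearest pair. Fabp6, the ileal bile acid binding protein, overlapped, at 126, 67.9 and 346 and 33.3, 38.3, 20.7, 129.7 and 62.6. The 2 lower members were the export pumps Abcc2 (difference −0.60) and Abcc4 (difference −0.61).

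Genes of the small intestinal enterocyte were apart in both directions. Of 36 listed genes, 30 were compared, 5 were higher and 3 lower with ranges apart (26.7%, against 11.8% of all genes), and the median difference was 0.38. Mogat2, which rebuilds triglycerides after fat uptake, averaged 29.1 ± 5.71 against 11.1 ± 6.15. Slc15a1, the di- and tripeptide transporter PEPT1, went the other way. It read 209, 137 and 216 in the low and 821, 1372, 1107, 1247 and 1788 in the high libraries (difference −2.73), and the sides were 3.79-fold apart at their nearest pair. Apoc2, an activator of lipoprotein lipase, was also lower, at 32.3 ± 9.56 against 93.7 ± 42.1. Alpi, intestinal alkaline phosphatase, overlapped, at 66.6, 51.8 and 70.8 and 34.9, 21.3, 296, 101 and 67.8. Of 14 Paneth cell genes, 5 were compared. Mmp7, which activates defensins, averaged 65.0 ± 18.0 against 8.94 ± 6.66, while Lyz1, the Paneth cell lysozyme, overlapped (130.1 to 225 and 53.4 to 254), and the defensin Defa24 was listed at 0 in all libraries but core plus R. intestinalis replicate 3 (6.36).

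Enzymes that clear drugs and other foreign compounds made up the list with the most members apart by count. The share apart was larger for the Hox genes given below (65%, against 54.5% here). Of 53 listed genes, 44 were compared and 22 were higher and 2 lower with ranges apart, with a median difference of 0.56. Over all genes the ranges were apart in 11.8%. Cyp4b1, a cytochrome P450, ran from 998 to 2834 in the low and from 50.03 to 769 in the high libraries (difference 3.40). Ces1g, a carboxylesterase, read 1067, 2523 and 1522 and 119, 90.6, 131, 573 and 185 (difference 3.21). In both genes core replicate 3 was the lowest of the low side and core plus R. intestinalis replicate 3 the highest of the high side. Cyp2c66, a P450 with low values, averaged 37.5 ± 6.15 against 5.42 ± 6.83. The glucuronosyltransferases Ugt1a1 and Ugt2b5, which tag bilirubin and drugs for excretion, averaged 3304 ± 739.6 against 938 ± 632 and 556 ± 19.3 against 148 ± 89.8. The 2 lower members were Cyp2d12 (41.4 ± 3.19 against 247 ± 105) and Cyp2c68 (254 ± 63.7 against 1092 ± 379.9). P450, esterase and transferase genes have near-identical copies, and Ugt1a genes share exons, so the split of reads between copies is uncertain.

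Further genes among the 15 widest on the higher side belong to defence, lipid handling and signalling. Reg3g, a lectin that kills Gram-positive bacteria, averaged 168 ± 76.9 against 26.6 ± 19.3. Vnn1, a pantetheinase, averaged 208 ± 63.2 against 35.5 ± 28.5, and Prap1, a proline-rich secreted protein, 212 ± 56.5 against 48.8 ± 49.2. Prkg2, the cGMP-dependent kinase II that acts downstream of guanylin, averaged 547 ± 141 against 127 ± 96.1. Abca12, a lipid transporter, was even on the low side (631, 637 and 604) and spread on the high side (178, 33.0, 304, 320.2 and 52.4). Dnase1l2, a DNase, averaged 158 ± 69.9 against 31.9 ± 17.1. Pla2g4c, a phospholipase, rested on 1 library, at 49.3, 51.8 and 663 in the low libraries and 18.1 to 45.2 in the high ones. Without core plus R. intestinalis replicate 4 it no longer reached the 2-fold minimum with ranges apart.

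On the lower side, B3gnt7, an N-acetylglucosaminyltransferase that extends sugar chains, had the widest gap of the named genes. It read 54.0, 17.2 and 29.5 in the low and 484, 826, 560.2, 401 and 1027 in the high libraries (difference −4.31), so that the sides lay 7.31-fold apart at their nearest pair. Sval1 read 267, 28.0 and 99.1 and 2567, 2434, 966, 1671 and 2763 (difference −4.40). Tgm3, a transglutaminase that crosslinks proteins, read 349, 139.8 and 229 and 1824, 4653, 2149, 5469 and 6862 (difference −4.04). In all 3 genes core plus R. intestinalis replicate 2 was the lowest of all 8 libraries and core replicate 3 the highest of the low side. Slc37a2, a sugar phosphate exchanger, was more uneven among the high libraries, at 79.4, 845, 49.5, 1389 and 579, against 28.7, 16.2 and 29.5 on the low side. The secreted phospholipase Pla2g2f averaged 29.9 ± 16.7 against 378 ± 199, the cytosolic phospholipase Pla2g4f 14.2 ± 8.79 against 74.4 ± 40.0, Fam55d (now Nxpe4) 118 ± 70.1 against 839 ± 249, the protease Ctse 92.2 ± 53.0 against 561 ± 195 and Ggh, which trims folate, 437 ± 138 against 2559 ± 993.

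**Figure D2:**
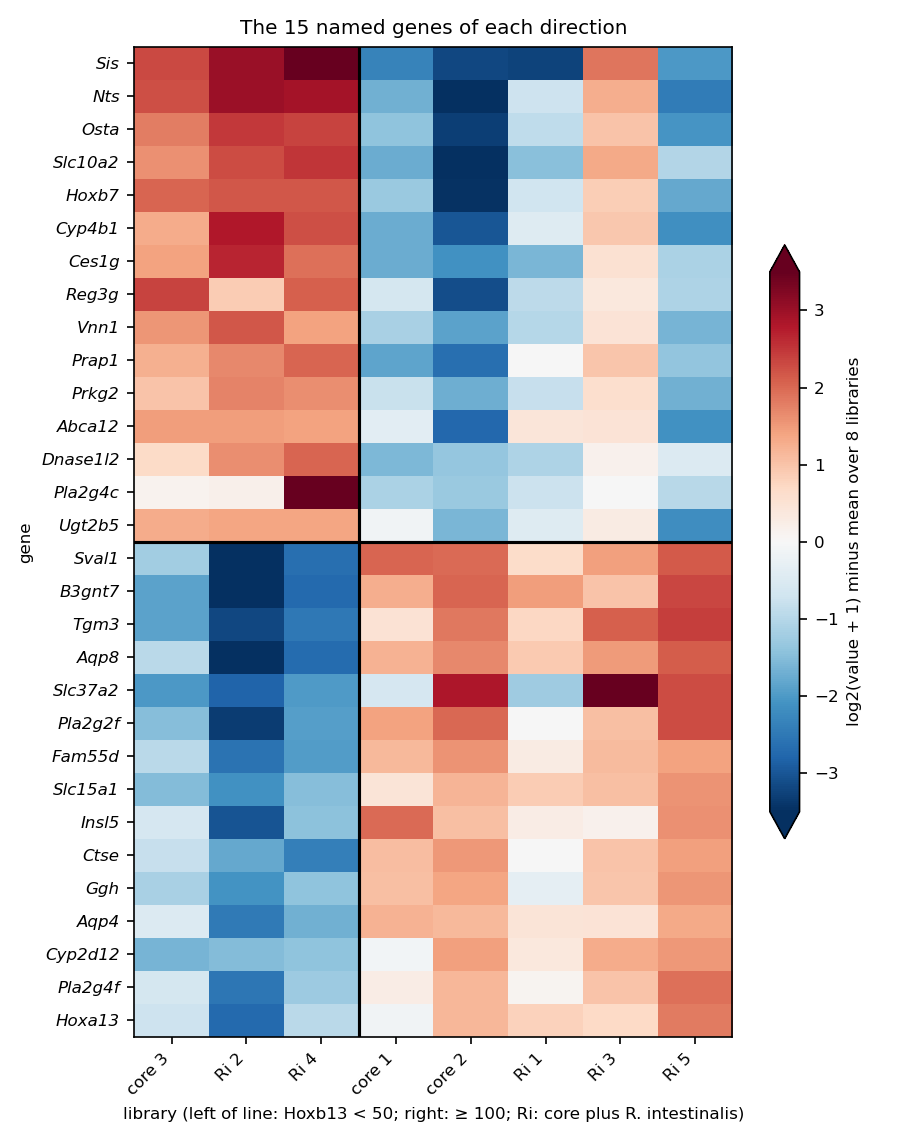
Deviation of log2(value + 1) from the mean over the 8 libraries for the 15 genes with the largest difference in each direction (rows), with the 3 low libraries left of the vertical line and the 5 high ones right of it. Core plus R. intestinalis replicate 3 is red for Sis (429 against a high-side mean of 101) and for most other genes of the upper block, and is also red in the lower block.

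Among genes of salt and water transport, more were lower than higher in the low-Hoxb13 libraries. Of 37 listed genes, 35 were compared, with 9 lower and 3 higher with ranges apart, against 5.6% lower and 6.18% higher over all genes. Only 7 of the 35 differences were above 0, against 49.1% of all genes (median difference −0.41, against −0.01 over all genes). Aqp8, a water channel of the colonic surface, read 344, 47.4 and 101 in the low and 1538, 2139.6, 1255, 1882 and 2866 in the high libraries (difference −3.96). Aqp4, a basolateral water channel, read 2073, 524 and 902 and 6803, 6446, 3998, 4078 and 7299.8 (difference −2.48). Core replicate 3 was the highest of the low side in both, and the sides did not overlap. Slc9a3, the sodium-proton exchanger NHE3, averaged 219 ± 76.7 against 1029.9 ± 501, and Best2, an ion channel of colonic goblet cells, 46.1 ± 15.4 against 235 ± 144. Slc26a3 averaged 4346 ± 1522 against 12215 ± 3614, and Scnn1a, the alpha subunit of the epithelial sodium channel, 268 ± 40.5 against 730.4 ± 391. The 3 higher members, Aqp1, Slc4a4 and the hormone uroguanylin (Guca2b), had differences of 0.43, 0.55 and 0.58.

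Genes of the carbonic anhydrase family, some of which supply bicarbonate and protons to these exchangers, went both ways. Of 16 genes 11 were compared. Car1, the abundant cytosolic form, read 83254, 109366 and 92121 in the low and 36525, 12235, 46258, 53024 and 35199 in the high libraries. Car8 averaged 1126 ± 202 against 309 ± 181 and Car12, a membrane form, 1238 ± 139.95 against 716 ± 246. Car4, the membrane form of the colonic surface, was lower in every low library, at 5087, 5080.3 and 6233 against 8175, 11988, 9265, 12716 and 14998. The butyrate carriers Slc16a1 (MCT1) and Slc5a8 were also lower, at 1224 ± 269 against 1894 ± 321 and 1016 ± 91.2 against 1499.98 ± 319.5. They were the only 2 of 10 compared members of the short-chain fatty acid list with ranges apart (20%, against 11.8% of all genes).

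Enzymes that build mucin and glycolipid sugars, and mucus proteins themselves, had members apart in both directions. Of 44 listed glycosyltransferases, 42 were compared, with 4 higher and 8 lower with ranges apart (28.6%, against 11.8% of all genes). Their median difference was −0.13. B4galnt2, which makes the Sda sugar antigen, read 11291, 15476 and 14797 and 5020.4, 4380, 7185, 10571 and 5766, with 1.07-fold between the nearest libraries. It too was known beforehand to follow the split. A4gnt, which caps gastric-type mucin sugars, averaged 837 ± 46.7 against 399 ± 178. St6galnac1, which adds sialic acid to mucins, averaged 4.88 ± 2.31 against 46.4 ± 32.0, and Fut9, a fucosyltransferase, 9.97 ± 6.44 against 49.6 ± 20.9. Of 33 goblet cell and mucin genes, 27 were compared, with 1 higher and 7 lower with ranges apart (29.6%). The membrane mucin Muc1 averaged 29.7 ± 20.1 against 120.3 ± 26.3 and the mucus protein Fcgbp 7665 ± 1734 against 14914 ± 3975, while the main secreted mucin, Muc2, overlapped (148837 to 221276 and 75618 to 243421).

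Neurotensin was higher and Insl5 lower on the low side, and more enteroendocrine genes were higher than lower. Of 31 listed, 21 were compared, with 7 higher and 1 lower with ranges apart (38.1%, against 11.8% of all genes; median difference 0.42). Nts, neurotensin, read 354, 593 and 562 in the low and 22.2, 2.13, 44.1, 178 and 12.8 in the high libraries (difference 4.35). Insl5, a hormone of L cells in the colon, read 247, 45.3 and 137 and 1473, 782, 445, 418 and 1145 (difference −2.70). The sides were apart for both, in opposite directions. Tph1, which makes serotonin, averaged 401 ± 94.6 against 149.6 ± 39.0, and secretin (Sct) 173 ± 84.6 against 59.5 ± 19.5. Pyy and Gcg, 2 further L cell hormones, overlapped, at 344 to 576 against 443 to 758 and 859 to 1073 against 765 to 1778.

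Hox genes with ranges apart differed in direction by cluster. Of 38 listed, Hoxb13 left out, 20 were compared, with 7 higher and 6 lower with ranges apart (65%, against 11.8% of all genes). All 7 higher ones were in the Hoxb and Hoxd clusters (Hoxb3, Hoxb4, Hoxb5, Hoxb7, Hoxb8, Hoxd4 and Hoxd10) and all 6 lower ones in the Hoxa cluster (Hoxa2, Hoxa3, Hoxa5, Hoxa7, Hoxa9 and Hoxa13). Hoxb7 read 285, 309 and 313 in the low and 27.0, 5.32, 42.1, 124 and 19.2 in the high libraries (difference 3.40). Hoxa13, a paralog of Hoxb13, read 28.7, 6.47 and 24.8 and 44.4, 109, 84.8, 79.5 and 174 (difference −2.34). Hoxb9, the nearest Hox gene to Hoxb13 in its cluster, overlapped (438, 563 and 496 and 219, 265, 488, 429.9 and 379.6). Hoxd10, at 41.3, 97.0 and 57.8 and 4.76, 7.45, 0, 16.9 and 3.83, passed the mean of 10 only through the low side. Hoxd13, a further paralog, overlapped, at 4.59, 2.16 and 1.18 and 7.94, 47.9, 0.67, 21.5 and 46.0. Genes of a Hox cluster have overlapping transcripts, so reads may be split between neighbours.

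**Figure D3:**
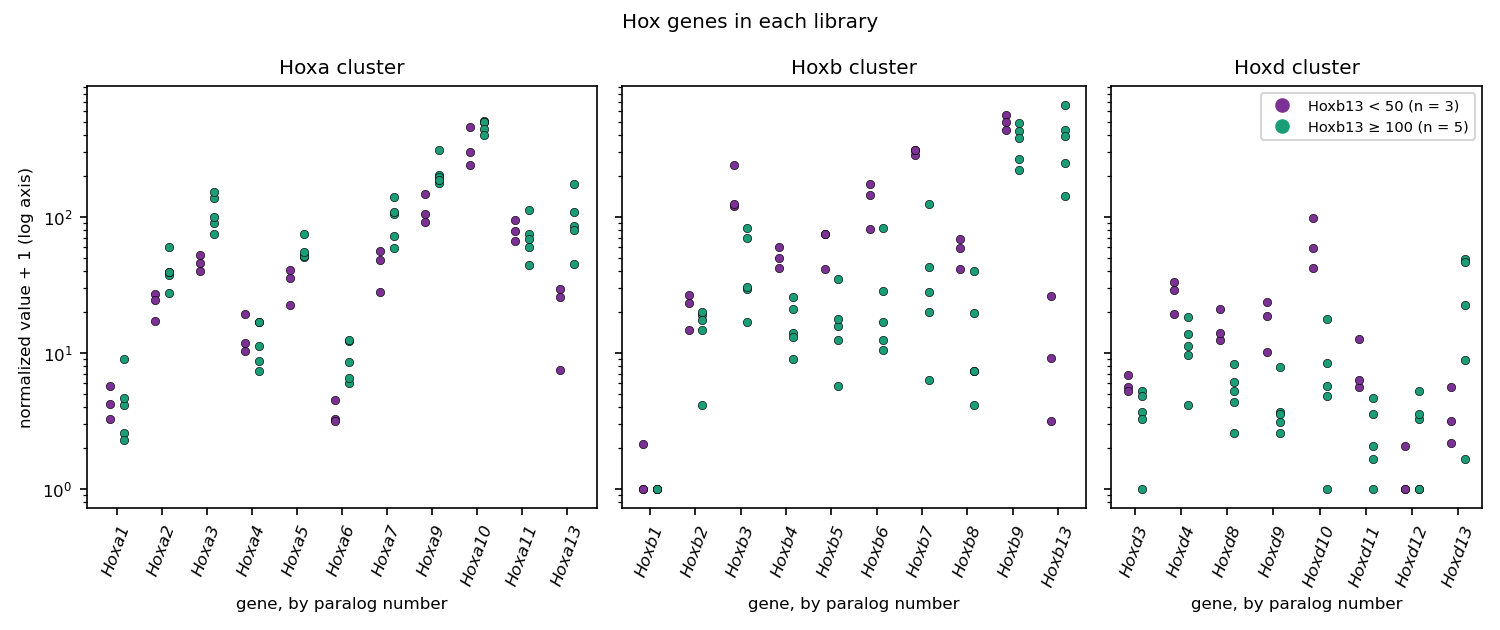
Normalized values plus 1 (log axis) of the Hoxa, Hoxb and Hoxd genes in the table, by paralog number, in the 3 low (purple) and 5 high (green) libraries. Hoxb3 to Hoxb8 are higher in the low libraries, with overlap for Hoxb6, and Hoxa13 is lower.

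Other transcription factors of the gut epithelium were more often below than above 0. Of 22 listed, 18 were compared, with 1 higher and 5 lower with ranges apart (33.3%, against 11.8% of all genes). Their median difference was −0.37. Isx, an intestinal homeobox factor that restrains vitamin A uptake, averaged 2577 ± 158 against 1123 ± 436. Foxa2, a forkhead factor, averaged 36.4 ± 17.6 against 107 ± 48.8, and Klf4, a factor of differentiated and goblet cells, 792 ± 236 against 1577 ± 522. Cdx2, the master factor of intestinal identity, overlapped, at 325 to 651 and 416 to 965.

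Fatty acid oxidation and PPAR targets were more often above than below 0. Of 44 listed genes, 38 were compared, with 7 higher and 1 lower with ranges apart (21.1%, against 11.8% of all genes). Their median difference was 0.25. Pparg, a nuclear receptor for fatty acids, averaged 835 ± 107 against 517 ± 64.6. Antimicrobial and defence genes went both ways, with 4 higher and 3 lower of 25 compared (28% with ranges apart). Saa3, an acute phase protein, averaged 57.9 ± 31.3 against 8.77 ± 6.57, and Nox1, the colonic NADPH oxidase, 9.86 ± 9.40 against 71.5 ± 36.5. Some of the genes named met the mean of 10 only through 1 side, which was the low side for Mmp7, Cyp2c66, Saa3 and Actc1 (a smooth muscle marker named below) and the high side for St6galnac1, Fut9 and Nox1.

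In the crypt stem cell and Wnt list 3 of 18 compared genes were higher and 2 lower with ranges apart (27.8%, against 11.8% of all genes), with Cd44 at 1133 ± 141 against 638 ± 76.9 and Axin2 at 69.7 ± 10.3 against 115 ± 39.4. In the cell cycle list 3 of 30 were higher and 1 lower (13.3%, near the share over all genes), and no absolute difference among these 4 was above 0.39 (Birc5). In the circadian list 0 of 15 had ranges apart, although 14 differences were below 0 (median −0.38).

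Markers of the other cells that a piece of gut wall holds are given as counts, to be read against the 11.8% of all genes with ranges apart. In bulk tissue, fewer cells of a type and less RNA per cell cannot be told apart. Ranges were apart in 1 of 16 smooth muscle genes (Actc1), 1 of 19 fibroblast genes (Lum), 2 of 15 genes of neurons, glia and pacemaker cells (Ednrb among them), 1 of 7 mesothelial genes (Upk1b), 1 of 14 endothelial genes (Flt4) and 1 of 8 T and NK cell genes (Cd8a). None of the 13 adipocyte, 13 B and plasma cell, 14 macrophage and dendritic cell or 11 MHC class II genes compared had ranges apart. In the interferon list 1 of 27 was higher and 4 were lower. The summed level of the smooth muscle list was 137156 to 164288 in the low libraries and 112183 to 224477 in the high ones. For the fibroblast list it was 11828 to 12999 in the low libraries and 9530.05 to 15195 in the high ones, and for the adipocyte list, whose median difference was 0.66, 3532 to 6390.4 in the low libraries and 3479 to 6926 in the high ones. The T and NK cell list (median difference 0.53) summed to 253 to 346 in the low libraries and 117 to 279.8 in the high ones. These sums overlapped between the sides, and their part in the differences was not tested. Markers of squamous epithelium were low, with 3 of 14 genes compared and none apart. Of 12 pancreatic acinar genes only Cela1 was compared (314 ± 78.5 against 668 ± 159), and Cpa1, which defines those cells, reached 0.46.

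**Figure D4:**
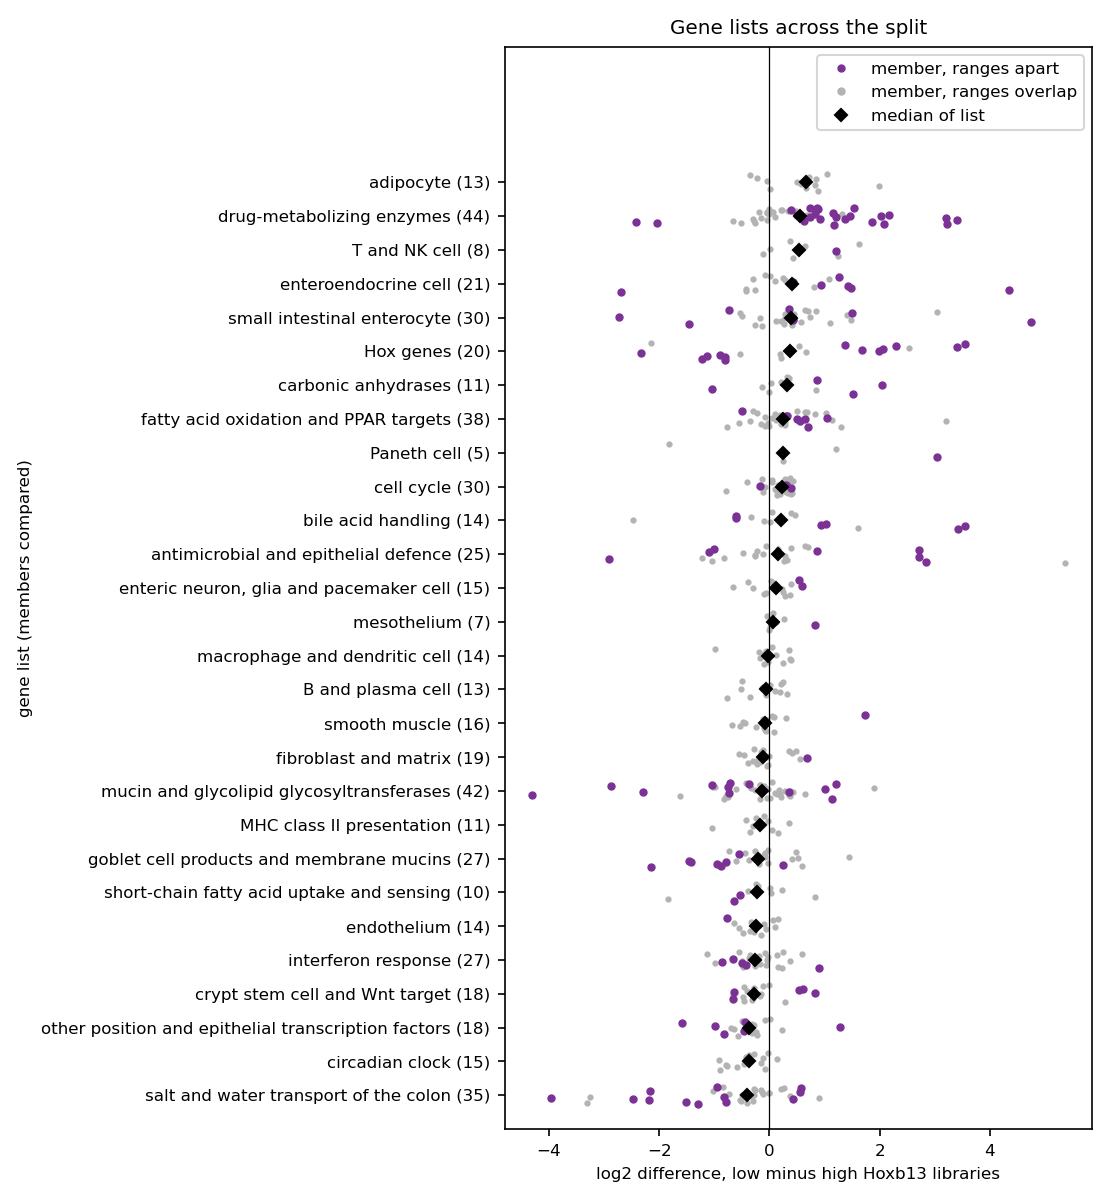
Differences (low minus high, in mean log2(value + 1)) of the members compared in the 28 lists with at least 5 of them, with purple dots for members whose ranges did not overlap, grey dots for the rest and diamonds for the medians. Adipocyte genes have the highest median (0.66) with no purple dot, and salt and water transport the lowest (−0.41).

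The libraries were not equally far apart within a side. Of the 131 higher genes, core plus R. intestinalis replicate 3 was the high library nearest to the low side in 96 (73.3%), and core replicate 3 the low library nearest to the high side in 86 (65.6%). For the 163 lower genes, core replicate 1 was the nearest high library in 70 (42.9%) and core plus R. intestinalis replicate 1 in 48. Core plus R. intestinalis replicate 2 was the nearest low library in only 12 of the higher and 15 of the lower genes. The count of higher genes was 179 when replicate 3 of core plus R. intestinalis was left out and 176 when core replicate 3 was.

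The named genes were chosen with ranges apart over all libraries, so their sign inside each community was fixed by that choice. Only the sizes are given here, with 1 low library against 2 high ones (core) or 2 against 3 (core plus R. intestinalis). The difference of Sis was 5.08 in core and 4.41 with R. intestinalis, and that of Slc10a2 4.23 and 2.79. Reg3g differed by 4.22 and 2.03, and Ugt2b5 by 2.16 in both. Among the lower genes, Aqp8 differed by −2.39 in core and −4.75 with R. intestinalis, and Hoxa13 by −1.25 and −2.94. Whether the size of the split differs between the communities was not tested.

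The study's own comparison, core plus R. intestinalis against core, was not used to draw the split, so it was tested with the side of the split as a term. No gene of the 13019 passed the limma threshold (0 genes, 0%, with a smallest adjusted p = 0.302), while 1878 (14.4%) reached an unadjusted p below 0.05. Without the split term these were 0 and 1058. Without core replicate 1 the count of unadjusted p-values was 568 and 1 gene passed the adjusted threshold, Rangrf, named after its values were seen, whose reads may be shared with a near-identical gene. Of the 30 genes named by size of difference, 0 passed the adjusted threshold and 11 had an unadjusted p below 0.05. These 30 were chosen with ranges apart across the split, which is also a term in this test. That choice bears on the spread within the sides, which the test uses. The 11 can therefore not be set against the 14.4% of all genes. Slc10a2 was higher in its mean with R. intestinalis (log2 difference 1.71, SE 0.603, unadjusted p = 0.0167, limma adjusted p = 0.327). Nts had a community difference of 1.86 (SE 0.806, limma adjusted p = 0.336) and Prap1 of 1.56 (SE 0.487). Aqp4 had one of −0.84 (SE 0.279) and Insl5 of −1.13 (SE 0.419), both with the same adjusted p as Slc10a2. The same 8 libraries give both the split and the community values, so these are set side by side only. The community difference of Slc10a2 was 1.08 and that of Nts 0.89 when core replicate 2 was left out. They were 1.14 and 1.21 when replicate 3 of the other community was left out instead. Other runs gave larger values, with 2.22 for Slc10a2 and 2.49 for Nts when core replicate 3 was left out. The community difference of Aqp4 was −0.43 in that run and −1.06 without replicate 5 of core plus R. intestinalis.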

How the data were processed

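RNA of the proximal large intestine was sequenced from stranded libraries, 1 per mouse. Bowtie2, RSEM 1.2.23 and mm9 appear in the submitters' processing notes with no role. The deposited table holds a normalized expression signal for 17041 genes, scaled by 1 factor per library. It also holds the authors' score (a posterior probability) and fold ratio for the community comparison, neither of which is used as a result here. Estimated depth is the sum of values over the commonest step between low values. Because 80.1% to 84.6% of low values matched a step, within a tolerance of 0.05, no count test was run. Low genes are the least precise.

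Genes with a mean of at least 10 were compared as log2(value + 1), which understates differences of low genes, between libraries with Hoxb13 below 50 and at 100 or more. Genes were apart where the ranges of the sides did not overlap, and no p-value was computed across the split. Folds between the nearest libraries of the sides were also taken on value + 1. The community was tested with limma 3.58.1 in R 4.3.3 (trend, side as a term, Benjamini-Hochberg threshold 0.05), and the scripts were tested on simulated data. The labels do not tie replicates to cages or isolators, so p-values cover only the variation among these libraries. Named genes are the 15 largest differences each way with ranges apart and a mean of at least 50, Riken, predicted, ribosomal and receptor-segment genes left out, and up to 4 members apart from each of 30 lists. Other members are named as overlapping, as tissue markers or to complete a small count, and some members are not reported here by name. The split, members and lists were chosen with earlier results of these data known. Alternatives were pseudocounts of 0.5 and 5, other mean minimums, trimmed mean and quantile rescaling, no trend, single communities, each library left out and a replicate block.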

Additional observations from a re-analysis of the deposited data

Results flagged for a closer look

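Values that stood apart within a group of 5 libraries, by Dixon's test on log2(value + 1), came up in 2 of 62 checks over the named genes. Chance alone gives about 1 in 20. Sis was 429 in core plus R. intestinalis replicate 3, far above the other 4 high-Hoxb13 libraries. Pla2g4c was 663 in core plus R. intestinalis replicate 4, far above the other 4 libraries of that community.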

How the results depend on the processing

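No difference of a named gene changed sign under any alternative run. These genes were chosen with ranges apart, so only the rescalings could have reversed a sign. Leaving out libraries, using a single community or changing the pseudocount could not. Of 1218 values of these differences, 1195 moved by less than the spread within the sides, and 22 of the other 23 came from using core libraries alone (1 against 2). The 131 higher and 163 lower genes became 205 and 231 with no filter, 76 and 108 with a mean of at least 50, and 804 and 729 with no fold minimum. With ranges 2-fold apart they were 8 and 19. Core plus R. intestinalis libraries alone gave 234 and 430, and core libraries alone 242 and 360, since fewer libraries overlap less. List members apart were 141, against 276 and 426 in those 2 subsets. With 1 library left out, higher genes ran from 123 to 179, lower genes from 149 to 419, list members apart from 143 to 188, and named genes still apart and 2-fold from 29 to 30 of 30. Ranges that are apart stay apart when a library is left out, so in those runs only the fold or mean minimum could remove a gene.

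The community test, with limma, gave 0 genes past the adjusted threshold under the rescalings, pseudocounts, filters and the fit with no trend, and 0 to 1 with 1 library left out. A replicate block over replicates 1 to 3 gave 61, with 1 residual degree of freedom. Slc10a2, Nts, Prap1, Aqp4 and Insl5 were among these, and B4galnt2 was not. Deviations of same-numbered libraries from their group means had correlations of −0.115, −0.53 and −0.0699. The split was not taken out, and replicates 2 and 3 each set a low library against a high one. The correlations therefore cannot tell whether the numbers pair anything. Depth limits genes near a mean of 10.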
